A study of Mus musculus with 8 samples.

Results

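The genes described here are the suppressors of cytokine signalling, Socs1 to Socs7 and Cish, together with Stat3, a transcription factor of the pathway that these proteins restrain. The 9 genes were taken by name, and all 9 were among the 20079 genes that passed a filter on dim probes. They carry 20 of the 56605 probes of the array, of which 16 passed the filter. Transcripts were measured in RAW264.7, a mouse macrophage cell line, on 8 one-colour arrays with 1 array per condition. The arm without melatonin had an unstimulated culture and cultures given lipopolysaccharide (LPS) at 100 ng/ml for 1, 3 or 5 h. The other arm received 1 mM melatonin for 1 h before the same LPS times, or melatonin alone. LPS, a molecule of the outer membrane of Gram-negative bacteria, is sensed by Toll-like receptor 4. No condition was repeated, and the labels do not say that cultures were independent, so the p-values do not measure spread between independent cultures. They rest on what a fit of LPS time plus melatonin leaves over. That remainder mixes array-to-array spread, which may be technical, with any change of the melatonin difference over LPS time.

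Cytokine receptors of the JAK-STAT pathway carry JAK kinases, which phosphorylate STAT factors that then enter the nucleus and switch genes on. SOCS proteins are made in response and close the loop. Their SH2 domain binds phosphorylated receptors or kinases, and their SOCS box recruits a ubiquitin ligase built from elongins and cullin 5. SOCS1 and SOCS3 also hold a short region that inhibits JAK kinases directly. In macrophages, SOCS1 is known for limiting interferon signalling and SOCS3 for limiting signalling by interleukin-6 through gp130, whereas STAT3 carries the signals of interleukin-6 and interleukin-10. LPS acts on this pathway through the cytokines and interferon that the cells secrete, and also through NF-kB and interferon regulatory factors (IRFs).

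Promoter sequences were taken from RefSeq (GRCm38.p6) for 5 of the 9 genes: Socs1, Socs3, Socs4, Cish and Stat3. Those of Socs2, Socs5, Socs6 and Socs7 were not searched, so nothing is said of their elements. Each entry spans 250 bases before the annotated start and 50 after it. They were searched on both strands for TTCNNNGAA, the core of STAT binding elements, for GAAA and GAAA with 2 bases between them, an element of the kind that IRFs bind, and for GGG and TTTCC with 2 bases between them, an NF-kB element. Of the 32851 promoters of this length that were searched, 8.3% held the first, 3.44% the second and 1.63% the third. The Socs1 and Socs3 sequences below are the 250 bases before the start, shown because both genes rose with LPS and both hold a match, and the Cish sequence is the 30 bases around its matches, from 5 bases before the start. Capitals mark the matches. Their positions are chr16:10785537-10785786 on the minus strand for Socs1, chr11:117969367-117969616 on the minus strand for Socs3 and chr9:107296654-107296683 on the plus strand for Cish.
Socs1: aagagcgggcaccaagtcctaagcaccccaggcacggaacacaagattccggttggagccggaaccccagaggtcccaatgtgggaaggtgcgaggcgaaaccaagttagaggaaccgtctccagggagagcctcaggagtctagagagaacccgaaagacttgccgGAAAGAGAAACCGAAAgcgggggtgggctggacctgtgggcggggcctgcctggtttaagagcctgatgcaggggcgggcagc
Socs3: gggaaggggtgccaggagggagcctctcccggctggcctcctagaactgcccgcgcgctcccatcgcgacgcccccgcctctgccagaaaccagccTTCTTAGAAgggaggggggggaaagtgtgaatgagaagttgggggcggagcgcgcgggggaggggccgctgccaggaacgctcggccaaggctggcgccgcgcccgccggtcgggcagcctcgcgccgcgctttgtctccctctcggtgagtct
Cish: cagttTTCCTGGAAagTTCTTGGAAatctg
Socs1 held the IRF-type element at 2 overlapping places, from base -83 to -74 and from -77 to -68 relative to the start. Socs3 held 1 match of TTCNNNGAA, TTCTTAGAA, from base -154 to -146. Cish held 2 matches of the same pattern just past its annotated start, TTCCTGGAA at bases 1 to 9 and TTCTTGGAA at bases 12 to 20. The Socs4 and Stat3 windows held no match of any of the 3 patterns, and no window of the 5 genes held the NF-kB element. These matches are letters in a window; binding was not measured.

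Values are log2 processed signals after subtraction of the 75th percentile of their array, so a value of 0 is the level of that percentile. Levels of different genes are not compared, since each has its own probe. Of the 9 genes, 8 were well above background on all 8 arrays, and Socs2 on 4. A difference at an LPS time is the mean of 2 arrays, 1 from each arm, minus that of the 2 arrays without LPS, with its standard error (SE) from the limma fit over all genes, and it was called where the Benjamini-Hochberg adjusted p was under 0.05. The 8 arrays lay on 1 slide, with the arms in its 2 rows and the LPS times in its 4 columns. Melatonin therefore cannot be told apart from slide row, nor LPS time from slide column or hours in culture. Groups followed the sample titles. For 3 melatonin samples the treatment field names the next LPS time in place of the titled one, and for the sample titled 5 h it is absent. In the array titled as melatonin alone, Socs3 (1.03) and Cish (-3.94) were at or below their levels in the unstimulated array (1.32 and -3.02). These values say nothing of the other melatonin arrays, whose LPS times were not tested. Of 11 macrophage markers, 9 were well above background on every array, and Mrc1 and Mertk on none. Of 4 T cell markers, Cd3e, Cd3d and Lck were well above background on every array. The log2 of the summed T cell markers was 1.61 to 1.85 at 0 and 1 h and 1.91 to 2.96 at 3 and 5 h. The B cell sum went from between -2.69 and -2.08 to between -1.46 and -0.57 over the same times, with 0 of 5 markers well above background on every array. With melatonin, sums were lower at 4 of 4 times for the T cell markers, for the macrophage markers (9.67 to 9.84 against 9.84 to 10.09) and for the neutrophil markers (0.25 to 0.38 against 0.65 to 0.86). Of the 5 neutrophil markers, 1 (Elane) was well above background on every array and 3 on none. The epithelial sum was higher at 4 of 4 times (-3.92 to -3.28 against -4.52 to -3.90), with 5 of 5 markers well above background on no array. The part of these markers in the LPS and melatonin results was not tested.

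LPS raised Cish, Socs3 and Socs1, inhibitors known to be cytokine-inducible, by 320-fold, 34.7-fold and 6.3-fold at 3 h, while the differences of Socs4 to Socs7 stayed under 1 log2 (less than 2-fold). The Cish fold rests on dim signals without LPS, and its size depends on the processing. After 1 h, 2 of the 9 genes were called, Cish and Socs3, both higher. That comparison called 1.92% of all 20079 genes, and 1.62% as higher (385 genes either way, and 94 to 316 with 1 array left out). After 3 h, 7 of the 9 were called higher, Socs1, Socs2, Socs3, Socs5, Socs6, Socs7 and Cish, where 33.2% of all genes were called and 18% as higher (6665 genes either way, and 2438 to 6707 with 1 array left out). Socs2 passed the filter only through arrays with LPS. After 5 h, 7 were again called higher, with Stat3 in place of Socs5, where 44.1% of all genes were called and 24.8% as higher (8856 genes either way, and 4329 to 8385 with 1 array left out). No member was called lower at any LPS time, where 0.299%, 15.2% and 19.3% of all genes were. The median difference of the 9 genes was 0.54, 0.77 and 0.67 at 1, 3 and 5 h, beside -0.01, 0.05 and 0.08 over all genes. In 5 of the 9 genes (Socs1, Socs3, Socs6, Socs7 and Cish) all 6 LPS arrays lay above both arrays without LPS, which held for 10.8% of all genes.

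**Figure D1:**
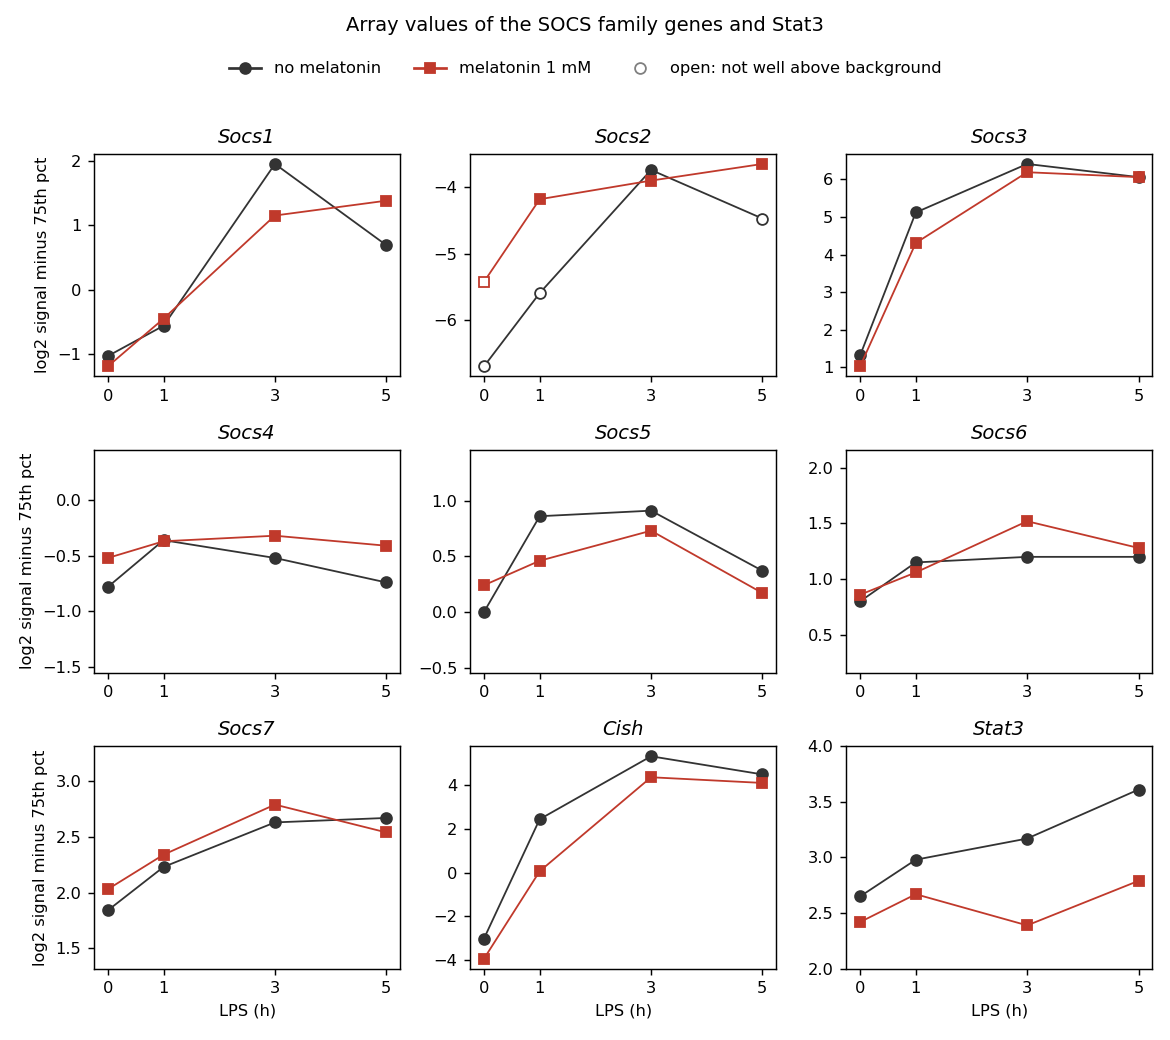
Each panel shows 1 gene on the probe that stands for it: log2 signal minus the 75th percentile of the array (vertical) against hours of LPS (horizontal), with 1 array per point and a vertical span of at least 2 log2. Cish climbs from below -3 to above 4 and Socs3 from near 1 to above 6 in both arms, Socs4 hardly moves, and the melatonin line of Stat3 lies below the other at every time.

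Cish encodes CIS, an SH2 protein best known as a STAT5-induced inhibitor of cytokine receptors. In the order 0, 1, 3 and 5 h, its levels were -3.02, 2.44, 5.32 and 4.49 in the arm without melatonin, and in the melatonin arm they were -3.94, 0.06, 4.36 and 4.10. Every LPS array lay above both arrays without LPS, by at least the step from -3.02 to 0.06. The log2 difference was 4.73 (SE 0.44) at 1 h, 26.6-fold (limma adjusted p = 0.00849). It was 8.32 (SE 0.44) at 3 h, 320-fold (limma adjusted p = 0.000349), and 7.78 at 5 h, 219-fold (limma adjusted p = 0.000294). The 2 levels without LPS were not far above the lowest values well above background on those arrays, -4.69 and -4.32. Over the 9 other settings the log2 difference went down to 3.73 at 1 h, 7.25 at 3 h and 6.69 at 5 h. The rise continued from 1 h to 3 h by 3.59 (SE 0.44, limma adjusted p = 0.00801). The 1 h call was lost without the unstimulated array (adjusted p = 0.0599 in limma) and in 2 of 9 other settings, a common floor and no melatonin term (up to 0.0885), and the step from 1 to 3 h without the 3 h array that had no melatonin (0.0735). With no melatonin term the call of that step was lost too (limma adjusted p = 0.0909).

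Socs3 encodes the inhibitor that binds gp130. Its levels were 1.32, 5.12, 6.41 and 6.06 without melatonin and 1.03, 4.31, 6.19 and 6.06 with it. The groups with and without LPS were far apart, and the arms met at 5 h. The log2 difference was 3.54 (SE 0.18, 11.6-fold, limma adjusted p = 0.00121) at 1 h. At 3 h it was 5.12, 34.7-fold (limma adjusted p = 0.000137), and at 5 h it was 4.88, 29.4-fold (limma adjusted p = 0.000109). These 3 calls held whichever array was left out, with values of 3.22 to 3.86 at 1 h. Socs3 rose further from 1 to 3 h, by 1.58 (SE 0.18, limma adjusted p = 0.0074), a call lost without the 3 h array that had no melatonin (0.0651). With no melatonin term the call of this step was lost too (limma adjusted p = 0.0543).

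Socs1, the inhibitor of interferon signalling, moved later. Without melatonin its levels were -1.03, -0.56, 1.95 and 0.69, and with it they were -1.19, -0.45, 1.15 and 1.38. The 1 h arrays lay closer to the arrays without LPS than to the later ones. The difference was 0.60 (SE 0.32, limma adjusted p = 0.478) at 1 h and 2.65 at 3 h, 6.3-fold (limma adjusted p = 0.00325). At 5 h it was 2.14, 4.41-fold (limma adjusted p = 0.00414). Socs1 rose by 2.05 from 1 to 3 h (limma adjusted p = 0.015), a call lost without either 1 h array or without the 3 h array that had no melatonin (adjusted p up to 0.113). From 3 to 5 h it went down by 1.26 without melatonin and up by 0.23 with it, values of single arrays that were not tested.

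Socs2, known for restraining growth hormone signalling, was a low transcript here. Its levels were -6.69, -5.59, -3.74 and -4.47 without melatonin and -5.42, -4.18, -3.90 and -3.65 with it. It was not well above background in either array without LPS, nor in the 1 h and 5 h arrays of the arm without melatonin, so its fold is a bound. Socs2 was at least 1.61-fold higher at 3 h (limma adjusted p = 0.0168). At 5 h it was called higher too (limma adjusted p = 0.0178), but only the melatonin array was well above background, so no fold is given. The bound sets the mean of the 3 h arrays against the lowest signal well above background on each array without LPS. It holds for that floor only, and a higher floor gives less. Both calls were lost with a common floor on dim signals (0.17 at each time) and with no melatonin term. Without the unstimulated array both were lost as well (adjusted p up to 0.101). They were also lost at 3 h without the 3 h array that had no melatonin, and without either 5 h array at 5 h.

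Socs4 to Socs7 are the family members less tied to cytokine induction, with roles described mostly in growth factor and insulin receptor signalling. Their differences stayed below 1 log2. Socs7 ran from 1.84 and 2.03 without LPS to 2.63 and 2.79 at 3 h, and its 2 arrays at every LPS time lay above both arrays without LPS. It was higher by 0.77 (SE 0.10, limma adjusted p = 0.00428) at 3 h and by 0.67 (limma adjusted p = 0.00446) at 5 h, in every fit with 1 array left out. Socs6 ran from 0.80 and 0.86 without LPS to 1.20 and 1.52 at 3 h. It was higher by 0.53 (SE 0.12, limma adjusted p = 0.0192) at 3 h and 0.41 (limma adjusted p = 0.0327) at 5 h. The 3 h call of Socs6 was lost in 3 of 8 fits with 1 array left out (either array without LPS, or the 3 h melatonin array) and the 5 h call in 4 (either array at 0 or 5 h), with adjusted p up to 0.127. With the mean of its probes or no melatonin term both calls were lost, and with no filter or no intensity trend the 5 h call was (adjusted p up to 0.137).

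Socs5 was 0 and 0.24 without LPS, 0.86 and 0.46 at 1 h, 0.91 and 0.73 at 3 h, and 0.37 and 0.17 at 5 h, in each case without and with melatonin. The 5 h levels overlapped those without LPS, and its higher values lay at 1 and 3 h. It was higher by 0.70 (SE 0.16, limma adjusted p = 0.0216) at 3 h, a call lost without the unstimulated array or either 3 h array (adjusted p up to 0.127). With no melatonin term this call was lost too (limma adjusted p = 0.0859). Socs4 lay between -0.78 and -0.32 on all 8 arrays, and its differences of 0.29, 0.23 and 0.08 were not called.

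From 1 to 3 h, 4 of the 9 genes were called, all higher: Cish, Socs3, Socs1 and Socs7. That step called 15% of all genes and 8.25% as higher (3016 genes either way, and 323 to 2904 with 1 array left out). The step of Socs7, 0.42 (SE 0.10, limma adjusted p = 0.0475), was lost in 6 of 8 fits with 1 array left out, every one but those without a 5 h array. Its lowest and highest values over the 8 fits were 0.37 and 0.47, and it was also lost in 7 of 9 other settings (adjusted p up to 0.268). From 3 to 5 h, limma called 0 of the 9 genes, where it called 0.0996% of all genes. Before adjustment that step held 1 member under 0.05, Socs5, at -0.55 (SE 0.16, limma adjusted p = 0.231).

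**Figure D2:**
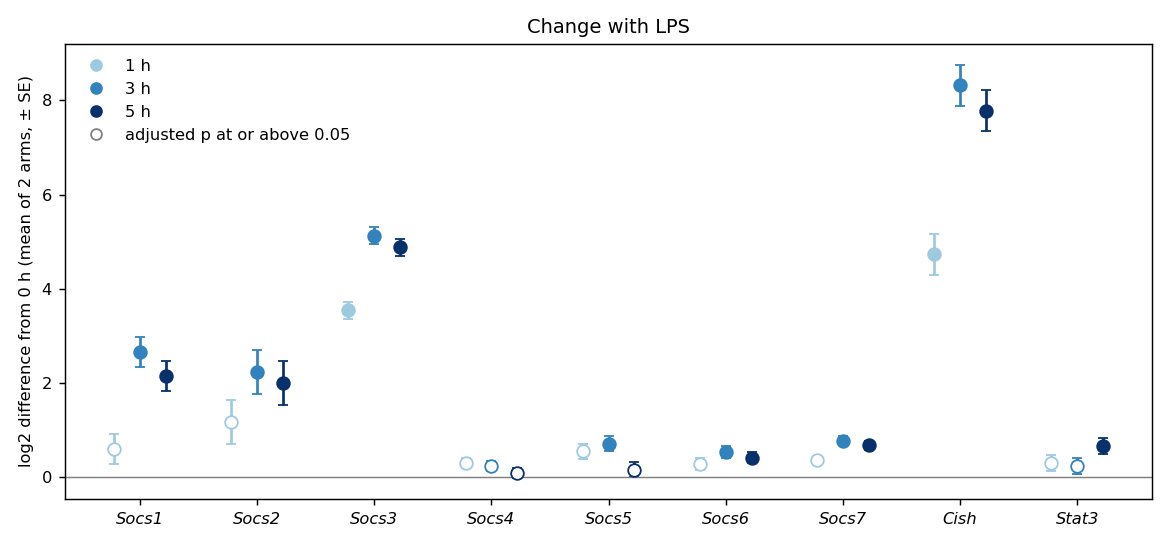
The vertical axis gives the log2 difference from the 2 arrays without LPS, as the mean over both arms with its SE, for each gene along the horizontal axis at 1, 3 and 5 h. Filled points passed an adjusted p of 0.05. Cish and Socs3 lie highest, at 8.32 and 5.12 at 3 h, and Socs4 to Socs7 and Stat3 stay below 1.

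Stat3 itself changed little. In the order 0, 1, 3 and 5 h, its levels were 2.65, 2.98, 3.17 and 3.61 in the arm without melatonin. In the melatonin arm they were 2.42, 2.67, 2.39 and 2.79. The arm without melatonin went up at each time, and the 3 h melatonin array lay just below its own array without LPS. Stat3 was higher by 0.66 (SE 0.17, 1.58-fold, limma adjusted p = 0.025) at 5 h, with 0.95 in the arm without melatonin and 0.36 with it. The call was lost without the unstimulated array or the 5 h array of the same arm (adjusted p up to 0.155). It was also lost in 4 of 9 other settings: no filter, a common floor, no intensity trend and no melatonin term (adjusted p up to 0.251). At 1 and 3 h the differences were 0.29 and 0.24 and were not called.

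Stat3, Socs6, Socs4 and Socs2 were each measured by more than 1 probe that passed the filter, and the text above follows the brightest. Stat3 has 3, on chromosome 11 of mouse build mm9 at chr11:100749598-100749657, chr11:100759946-100760005 and chr11:100746462-100746521, in order of brightness. The 5 h rise was 0.87 on the second (limma adjusted p = 0.00891) and 0.85 on the third (limma adjusted p = 0.22). The probes of Socs6 did not move alike. Its second probe was higher by 0.46 at 3 h and 0.49 at 5 h (limma adjusted p = 0.028 and 0.0176), whereas its dimmest gave -0.15 and -0.04 (limma adjusted p = 0.443 and 0.855). Of the 3 Socs4 probes, the dimmest was called higher at 3 h, by 0.37 (limma adjusted p = 0.0428). The second Socs2 probe was higher by 2.54 at 3 h and 1.91 at 5 h (limma adjusted p = 0.0173 and 0.0338), as fitted values that rest on signals below background without LPS. At 1 h it gave 0.20, where the brightest gave 1.17, and neither was called. From 1 to 3 h it was called higher, by 2.34 (limma adjusted p = 0.0405), whereas the brightest gave 1.06 with no call (limma adjusted p = 0.179).

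**Figure D3:**
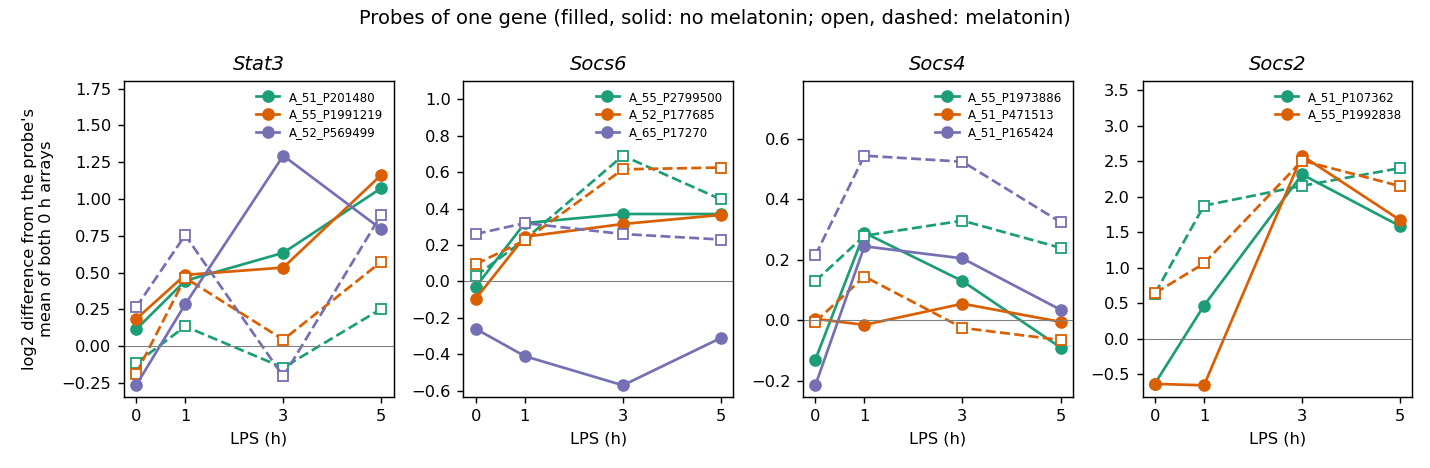
Each panel shows the probes of 1 gene that passed the filter, as log2 difference from the mean of that probe's 2 arrays without LPS (vertical) against hours of LPS (horizontal). Filled points and solid lines are the arm without melatonin, open points and dashed lines the arm with it. The 2 Socs2 probes lie apart at 1 h and closer together at 3 and 5 h. The third probes of Stat3 and Socs6 leave the path of the other 2.

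The kinases, receptors and ligands around these inhibitors were read from lists of genes chosen by function. Their counts stand beside 1.62% of all genes called higher and 0.299% lower at 1 h, 18% and 15.2% at 3 h, and 24.8% and 19.3% at 5 h. Of 4 JAK kinases, 2 rose and 1 fell at both 3 and 5 h. Jak2, a kinase of the receptors of growth hormone and several colony-stimulating factors, went from 0.75 and 0.78 without LPS to 2.67 and 2.21 at 3 h, a rise of 1.68 (SE 0.13, limma adjusted p = 0.00102). Jak3 fell by 0.91 at 5 h (SE 0.12, limma adjusted p = 0.00247), though by 0.24 with no call (adjusted p = 0.266) as the mean of its probes. Of 5 other STAT factors tested, 0 rose and 1 fell at 3 and 5 h. That factor was Stat5b, and its 3 h call was lost in all 8 fits with 1 array left out.

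Of 16 ligand genes, 5 did not pass the filter on dim probes. Of the 11 that passed, 7 were not well above background in either array without LPS, so they passed through the LPS arrays where they were high, and nothing is read from how many of the list rose. Il6 was not well above background without LPS and reached 5.86 and 1.60 after 3 h (melatonin second), then 7.13 and 3.92 after 5 h. Folds of such genes are bounds against the lowest signal well above background on each array without LPS, and they hold for that floor only. Il6 was at least 301-fold higher at 3 h and at least 1040-fold at 5 h (limma adjusted p = 0.00191 and 0.000753). Ifnb1, the gene of interferon beta, was likewise below background without LPS and at least 63.9-fold higher at 3 h (limma adjusted p = 0.00304). Csf2 and Csf3, which encode colony-stimulating factors, were at least 108-fold and 167-fold higher at 3 h (limma adjusted p = 0.00118 and 0.000827). Over all settings the log2 difference at 3 h went down to 7.39 for Il6, 5.27 for Ifnb1, 5.79 for Csf2 and 6.44 for Csf3. Il10 did not pass the filter on dim probes.

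Of 22 receptor chains tested, 8 rose and 5 fell at 3 h, and 7 rose and 5 fell at 5 h. With 1 array left out, the counts at 3 h ran from 3 to 7 higher and from 0 to 5 lower, and those at 5 h from 5 to 8 higher and from 1 to 4 lower. The median difference was 0.13 at 3 h and 0.15 at 5 h, beside 0.05 and 0.08 over all genes, so nothing sets the list apart. Il6ra, the chain that binds interleukin-6, was 4.39 and 4.17 without LPS and 0.98 and 2.18 at 5 h, so both arms were lower. It fell by 2.70 at 5 h (SE 0.40, limma adjusted p = 0.00395). Il6st, which encodes gp130, gave -0.41 at 3 h and -0.26 at 5 h, and neither was called. Il10ra rose by 1.30 at 3 h and 5 h (SE 0.17, limma adjusted p = 0.00427 and 0.00284), and Il4ra by 1.79 and 1.64 (limma adjusted p = 0.00054 and 0.000441). Ifngr1, a chain of the interferon gamma receptor, fell by 0.96 at 3 h (limma adjusted p = 0.0139), a call lost without the unstimulated array or the 3 h array that had no melatonin (adjusted p up to 0.0867).

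Inhibitors of other families moved in both directions. Of 12 tested, 4 rose and 1 fell at 3 h, and 7 rose and 1 fell at 5 h; with 1 array left out, 1 to 6 rose at 5 h. Pias3, a protein inhibitor of STAT3, was -2.30 and -1.32 without LPS and -3.99 and -2.29 at 5 h. It fell by 1.33 at 5 h (SE 0.21, limma adjusted p = 0.00518). Ptpn2, a phosphatase of JAKs and STATs, rose by 0.65 at 3 h (SE 0.10, limma adjusted p = 0.00601; 0.0538 without the 3 h array that had no melatonin). Usp18, an interferon-induced inhibitor of the interferon receptor, rose by 2.28 at 5 h (SE 0.55, limma adjusted p = 0.0197), a call lost without the unstimulated array or either 5 h array (adjusted p up to 0.121). Among 7 partners of the SOCS box, 3 rose at 3 h and 5 at 5 h. Eloc, the elongin C gene, rose by 0.81 at 5 h (SE 0.07, limma adjusted p = 0.00064) and Cul5, the cullin, by 0.60 (limma adjusted p = 0.00439). With quantile normalization the count at 5 h was 2, and with 1 array left out it was 2 to 4.

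Of 20 genes known as STAT3 targets, 8 rose at 1 h, 15 at 3 h and 16 at 5 h, while 0, 2 and 1 fell. The 1 h count ran from 3 to 7 with 1 array left out, and 1 of the 20, Myc, passed the filter only through the LPS arrays. Many of them are also known to respond to other LPS-activated factors. Pim1, a kinase gene, rose by 3.53 at 1 h (SE 0.15, limma adjusted p = 0.000589) and by 4.61 at 3 h (limma adjusted p = 0.000117). Bcl3 rose by 1.36 at 5 h (SE 0.16, limma adjusted p = 0.00197). Il1rn, the interleukin-1 receptor antagonist, rose by 5.11 at 5 h (SE 0.45, limma adjusted p = 0.000835). Of 16 interferon targets tested, 2 rose at 1 h, 11 at 3 h and 13 at 5 h, and 0 fell. With 1 array left out, those counts ran from 1 to 3, from 6 to 13 and from 7 to 14, and 1 of the 16, Gbp2, passed the filter only through the LPS arrays. Cxcl10 rose by 6.13 at 1 h and 9.03 at 3 h (SE 0.40, limma adjusted p = 0.00248 and 0.00021), and Irf1 was not called at any LPS time.

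Melatonin was compared over 4 arrays against 4, matched by LPS time. Of the 9 genes, 2 were called, Cish and Stat3, both lower, in a comparison that called 40.7% of all genes and 25.5% as lower (8174 genes either way, and 4073 to 6789 with 1 array left out). The share of members called is thus not above that of all genes. The median difference of the 9 genes was -0.04, beside -0.1 over all genes. Before adjustment 4 were under 0.05, with Socs3 (-0.33, SE 0.13, limma adjusted p = 0.085) and Socs2 (0.84, SE 0.33, limma adjusted p = 0.0905) added. Socs2 was well above background on only 4 arrays and on neither array without LPS. Its value therefore holds gaps between signals that were not measured. Of all genes called, 3051 were higher and 5123 lower, and with quantile normalization 3553 and 3599.

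Cish was lower with melatonin at 4 of 4 times, as 36.7% of all genes were. The gap was -0.91 without LPS, -2.38 at 1 h, -0.97 at 3 h and -0.39 at 5 h, each from 1 array against 1. With quantile normalization it became -0.64 at 3 h and -0.19 at 5 h, and with normexp background correction -0.44 without LPS. The size of the gap at those times thus depends on the processing. The widest gap was at 1 h, when the melatonin array stood at 0.06 and the other at 2.44. The mean difference was -1.16 (SE 0.31, 2.24-fold, limma adjusted p = 0.0303). This call was lost in 4 of 8 fits with 1 array left out, those without a 0 h or a 3 h array of either arm, with values of -1.42 to -0.76 and adjusted p up to 0.0891. It was also lost in 5 other settings, with quantile normalization and the authors' deposited value table among them (adjusted p up to 0.0696). Over all settings its value ran from -1.16 to -1.01.

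Stat3 was lower with melatonin at 4 of 4 times, by -0.23, -0.30, -0.78 and -0.82 at 0, 1, 3 and 5 h. The arms lay further apart at 3 and 5 h than before. The mean difference was -0.53 (SE 0.12, 1.45-fold, limma adjusted p = 0.0194). The call was lost in 4 of 8 fits with 1 array left out, those without a 3 h or a 5 h array of either arm, with adjusted p up to 0.0777. It rests on the brightest probe: the second gave -0.37 (limma adjusted p = 0.0552) and the third -0.10 (limma adjusted p = 0.841). As the mean of its probes the call was lost, at -0.33 (limma adjusted p = 0.168). The second probe was lower with melatonin at every time. The third was lower only at 3 h (-3.99 against -2.49) and higher at 0, 1 and 5 h.

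Among the other members the arms crossed, except in Socs3. Socs3 was lower with melatonin at 4 of 4 times, as 36.7% of all genes were. Its gap was 0.81 log2 at 1 h, from 5.12 to 4.31, and its arms were equal to 2 decimals at 5 h. With quantile normalization its difference became 0.02 at 3 h and 0.18 at 5 h, so its direction at those times depends on the scaling. Socs1 was lower with melatonin at 3 h (1.15 against 1.95) and higher at 5 h (1.38 against 0.69). Socs2 was higher with melatonin at 3 of 4 times, from signals that were below background in 4 arrays. The dimmest probe of Socs6 was called higher with melatonin, by 0.65 (limma adjusted p = 0.00674), as was the dimmest of Socs4, by 0.33 (limma adjusted p = 0.0196), whereas their brightest probes gave 0.09 and 0.19 with no call.

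**Figure D4:**
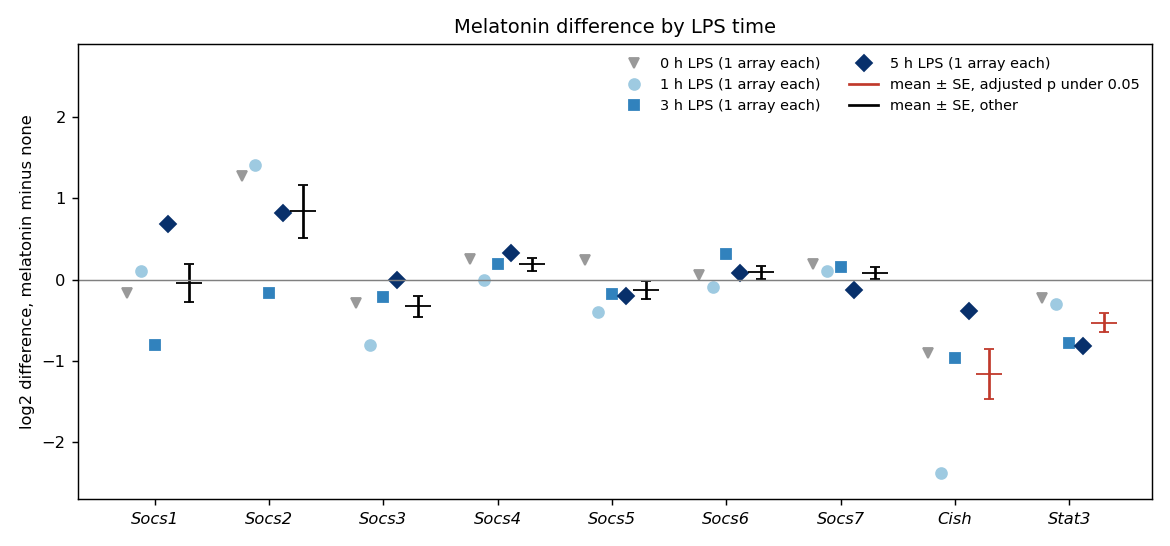
For each gene along the horizontal axis, the 4 points give log2 melatonin minus none at 0, 1, 3 and 5 h of LPS, each from 1 array against 1, and the bar gives the mean with its SE, in red where the adjusted p was under 0.05. Cish reaches -2.38 at 1 h, Stat3 lies below 0 at all 4 times, and Socs1 has points on both sides of 0.

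Whether the melatonin difference changed with LPS was read from a melatonin by LPS term, which subtracts the difference without LPS from the mean over the 3 LPS times. limma called 0 of the 9 genes on it, and 0% of all genes. Before adjustment 1 member was under 0.05, Socs5, with a term of -0.50 (SE 0.18, limma adjusted p = 0.915). The term was -0.34 (SE 0.75) for Cish and -0.40 (SE 0.25) for Stat3. Beside the mean melatonin difference of Cish, -1.16, its error of 0.75 is large, so a change of that size was not detectable with these arrays.

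Around the inhibitors, melatonin counts stand beside 15.2% of all genes called higher and 25.5% lower. Of 11 ligand genes, 7 were called lower and 0 higher, with 1 to 8 lower when 1 array was left out. Of the 11, 7 (not the same 7) passed the filter only through the LPS arrays, so nothing is read from this count. Il6, Csf2 and Ifnb1 were called lower (limma adjusted p = 0.0356, 0.021 and 0.0333). Their 2 arrays without LPS were below background, so the mean over 4 times holds a gap between signals that were not measured, and no mean difference is given. Each of these 3 calls was lost without any 1 of the 6 LPS arrays (adjusted p up to 0.129). Of 20 STAT3 targets, 8 were lower and 1 higher; with quantile normalization 4 were lower, and with 1 array left out 4 to 8. Il1rn was lower by 2.60 (SE 0.32, limma adjusted p = 0.00421) and Bcl3 by 0.70 (SE 0.11, limma adjusted p = 0.00778), while Pim1 (-0.05, limma adjusted p = 0.709) was not called. Of 16 interferon targets, 3 were lower, a share below that of all genes, and 2 to 7 were with 1 array left out. Stat5a was lower by 0.42 (SE 0.05, limma adjusted p = 0.00407).

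Of 22 receptor chains, 3 were higher and 6 lower with melatonin, shares close to those of all genes, and 0 to 5 were higher and 4 to 8 lower with 1 array left out. Among them were Il10ra, lower by 0.68 (SE 0.12, limma adjusted p = 0.0101), and Il6st, higher by 0.55 (SE 0.16, limma adjusted p = 0.0384; lost without any 1 of the 6 LPS arrays). Of 12 inhibitors of other families, 1 was higher and 4 lower, but each fit with 1 array left out called 2 lower. The 1 that was higher was Pias3. Its 4 levels with melatonin were -1.32, -1.78, -2.03 and -2.29, and those without were -2.30, -2.86, -3.52 and -3.99. It was higher with melatonin at 4 of 4 times, as 22.3% of all genes were. The difference was 1.31 (SE 0.15, limma adjusted p = 0.00385) and was called in every fit with 1 array left out. Of the SOCS box partners, only Eloc was called among the 7 tested, lower by 0.40 (SE 0.05, limma adjusted p = 0.00385; 0.0538 with the authors' deposited value table).

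Genes whose course over the 8 arrays was most like that of a member were listed by Pearson r, among 5865 genes that were well above background on every array and spanned at least 1 log2. Next to Socs3 stood Acod1 (r = 0.996), Gadd45b (0.996), Traf1 (0.995) and Sdc4 (0.994). Next to Cish stood Ccl3 (0.995), Ccl4 (0.994), Cxcl10 (0.993) and Cflar (0.993), of which the first 3 are chemokine genes. Socs1 was most like Zfp428 (0.981), Filip1l (0.973), Dus2 (0.972) and Pik3r5 (0.971), and Stat3 most like E430016F16Rik (0.971) and Erich5 (0.968). Probes without a gene symbol made up the rest of each list of 5. The 8 points share their LPS times and their slide, so these values describe the arrays and carry no test.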

How the data were processed

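Per the labels' protocols, total RNA was labelled with Cy3 for 1-colour arrays. Per the file headers and the submitters' processing notes, the intensity values are signals that Agilent Feature Extraction 12.0.3.1 background-subtracted, and flags of 0 or 1, a score deposited per spot, mark spots above background. The authors' deposited log2 table of the series holds the same sorted values on every array, by a tool not named in the sources used here. Here the 75th percentile of an array was subtracted from its log2 processed signals, spots of a probe averaged, probes kept if at least 2 of 8 arrays had them well above background, and the brightest probe taken for a gene. Symbols were updated through RefSeq accessions (GRCm38.p6). An additive limma model (limma 3.58.1, R 4.3.3) with LPS time and melatonin, fitted on 20079 genes with 3 residual degrees of freedom and an intensity trend, gave 2-sided moderated tests with Benjamini-Hochberg adjustment; a second model added the melatonin by LPS term. No spot was saturated, 46.96% to 52.98% of probes per array were well above background, and the number of arrays limits the precision. Members, lists and tests were chosen with earlier results of these data known. Named were the members, a panel of pathway genes, up to 4 genes per list with the largest called LPS difference in the same direction in both arms, and the 5 genes most like a member. A panel gene is not reported here. Alternatives were scaling, background correction, the deposited table, filters, floor, trend, probe choice, melatonin term and leaving out each array.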

Additional observations from a re-analysis of the deposited data

How the results depend on the processing

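Of 22 called differences of the 9 genes, 9 were called under every setting and with any 1 array left out: Socs3 at 1, 3 and 5 h of LPS, and Socs1, Socs7 and Cish at 3 and 5 h. The count of members called at 1 h of LPS was 1 with a common floor. It was 1 at 1 h, 4 at 3 h, 4 at 5 h and 1 from 1 to 3 h without a melatonin term. The melatonin count was 1 with quantile normalization, the deposited value table, no filter, a common floor or no intensity trend. With 1 array left out, the counts ran from 1 to 2 at 1 h, 4 to 7 at 3 h, 4 to 7 at 5 h, 0 to 4 from 1 to 3 h, 0 to 0 from 3 to 5 h, 0 to 2 for melatonin and 0 to 0 for the melatonin by LPS term, which could not be fitted without either 0 h array. No paired analysis by replicate number could be made, since no condition was repeated; the additive fit already matches the arms by LPS time.

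Every sign change was in a difference that was not called in the main analysis, except the LPS differences of Socs6 on its dimmest probe; the cause was not tested. By setting, Socs2 at 1 h became 0 with a common floor, and Socs6 from 3 to 5 h became 0.01 as the mean of its probes. The melatonin by LPS term of Socs3 became 0.16 with quantile normalization and 0.17 in the deposited table, and that of Socs2 0.01 with normexp and 0.06 with a common floor. On other probes, Socs6 gave -0.04 at 1 h, -0.15 at 3 h, -0.04 at 5 h, -0.11 from 1 to 3 h and 0.12 from 3 to 5 h on the dimmest, and 0.03 from 3 to 5 h and 0 for the melatonin by LPS term on the second. Socs4 gave -0.03 at 5 h and 0.02 for that term on its second probe, and Stat3 gave 0.02 from 1 to 3 h on its dimmest and 0.01 for that term on its second. With 1 array left out, the ranges that crossed 0 were -0.01 to 0.17 for Socs4 and -0.10 to 0.40 for Socs5 at 5 h. From 1 to 3 h they were -0.19 to 0.08 for Socs4, -0.02 to 0.34 for Socs5 and -0.21 to 0.12 for Stat3. From 3 to 5 h they were -0.91 to 0.42 for Socs2, -0.26 to 0.03 for Socs6 and -0.24 to 0.04 for Socs7. For melatonin the range was -0.28 to 0.21 for Socs1. For the melatonin by LPS term they were -0.18 to 0.56 for Socs1, -0.22 to 0.18 for Socs3, -0.16 to 0.01 for Socs4, -0.07 to 0.13 for Socs6 and -0.76 to 0.23 for Cish.

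Over all genes, the 385 calls at 1 h became 136 with no filter, 92 with a common floor, 150 with no intensity trend and 64 with no melatonin term. Without that term the counts at 3 h (6665), 5 h (8856) and from 1 to 3 h (3016) were 1523, 2700 and 216. From 1 to 3 h they were 1650 with no filter and 1637 with no trend. The 20 calls from 3 to 5 h ran between 1 and 33 over the settings and between 1 and 43 with 1 array left out. Of genes called at 3 h, 54.1% were higher and with quantile normalization 42.1%; at 5 h these were 56.2% and 43.6%, and from 1 to 3 h 54.9% and 42.4%. The settings applied to the pathway lists were chosen after seeing the data. Socs2 is the member that signal over background limits most.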
